A study of Homo sapiens with 30 samples.

Results

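The transcripts described are the abundant intergenic long noncoding RNAs of LNCaP cells, a line derived from a human prostate cancer metastasis that responds to androgen. They were chosen from the deposited gene counts: genes with the biotype lincRNA whose CPM (the count scaled to the total of its library) averaged at least 3 over all 30 libraries, leaving out PCA3, PCGEM1, PCAT1, PCAT14, ARLNC1, DRAIC, NEAT1 and MALAT1. The rule kept 271 of the 7629 lincRNAs among 58735 genes in the table. Before the names were left out 274 lincRNAs passed the threshold, and 3 of the named transcripts were among them. Since mean CPM chose the 271, their levels are given as a description without a test, and a member close to the threshold can owe its place to the groups in which it was high. At the threshold, AC107067.1 and LINC00992 averaged 3.01 CPM and the chromosome 14 copy of LINC01297 averaged 3.004 CPM, while LINC01579, AC009478.1 and AC007383.2 lay just outside at 2.99 CPM each.

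Long intergenic noncoding RNAs are transcribed by RNA polymerase II from their own genes, and are usually spliced and polyadenylated like messenger RNA but carry no long open reading frame. Many start back to back with a protein-coding gene from a shared promoter, some hold small nucleolar RNAs or microRNAs inside them, and a few, such as NORAD and PURPL, have described roles as RNA molecules. In prostate cells the androgen receptor switches a subset of them on or off, and the kinase mTOR, which couples nutrients to growth, can sit in the cytoplasm or in the nucleus.

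In all 30 samples the endogenous mTOR was knocked down by a short hairpin RNA (shmTOR), and an inducible construct then supplied wild-type mTOR (WT), mTOR carrying a nuclear export signal (NES), mTOR carrying a nuclear localization signal (NLS), the NLS form with the kinase-dead mutation D2357E (NLSKD), or an empty vector (EV). Each of the 5 lines spent 48 h in 2% serum stripped of steroids with charcoal and then received 10 nM R1881, a synthetic androgen, or the ethanol vehicle (0.1%) for 24 h. That gives 10 groups of 3 libraries: WT, NES, NLS, NLSKD and EV with R1881, and the same 5 lines with vehicle. The labels number the libraries of a group 1 to 3 without saying whether they came from separate cultures, so p-values measure the spread between these libraries, which may be technical. Each construct is 1 line, so a difference from EV or between constructs cannot be told apart from a difference between lines.

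The libraries held 21435364 to 61762468 counts on genes, and a limit of 3 counts corresponded to 0.0486 to 0.140 CPM. MTOR averaged 1567, 4134, 1010 and 1069 CPM in WT, NES, NLS and NLSKD cells with R1881, against 62.6 CPM in EV cells, and KLK3 (prostate-specific antigen) was higher with R1881 than with vehicle in each line. The 8 luminal prostate markers summed to between 3255 and 11060 CPM per library, and the 3 basal ones to between 0 and 2.70 CPM, almost all of it KRT14 (2.08 CPM in EV cells with R1881). The 5 neuroendocrine markers summed to 9.25 to 37.9 CPM, mostly ENO2, with CHGA and INSM1 below 0.1 CPM in every group mean. The 6 mesenchymal ones summed to 111 to 411 CPM, mostly FN1, whose group mean was lowest in EV cells with R1881 (124 CPM), with COL1A2 at 0 in every group. The 3 of blood and endothelium reached 0.276 CPM, and the part of these markers in the results was not tested. In bulk RNA such as this, fewer cells of a type and less RNA per cell cannot be told apart. Mitochondrial genes took 3.90 to 11.7% of counts, and 5 libraries lay above 9%. They were the second libraries of NES and of NLS with R1881, the second of NLS and of NLSKD with vehicle, and the third of EV with vehicle, and are called mitochondria-rich below. The part of mitochondrial share in the results was not tested, and counts of changed members without them are given where they moved by over 1.5 times.

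Most members were low and broadly present. Their mean CPM had a median of 6.69 and reached 600.2 CPM for NORAD, 92 of the 271 averaged at least 10 CPM and 3 at least 100 CPM. In 182 the mean was at least 3 CPM in every group, and only 13 reached 3 CPM in 5 groups or fewer. Per length, on the deposited FPKM scale, their median was 3.65 FPKM, against 7.23 FPKM for the 10816 protein-coding genes of at least 3 CPM. All 271 together took 0.328 to 0.442% of the counts of a library, and NORAD alone held 15.01% of those. As annotated, 110 members start within 2000 bases of a protein-coding gene that runs the other way (head to head), 57 overlap the body of a protein-coding gene, 14 of them on the same strand, and 143 carry only a clone name.

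**Figure D1:**
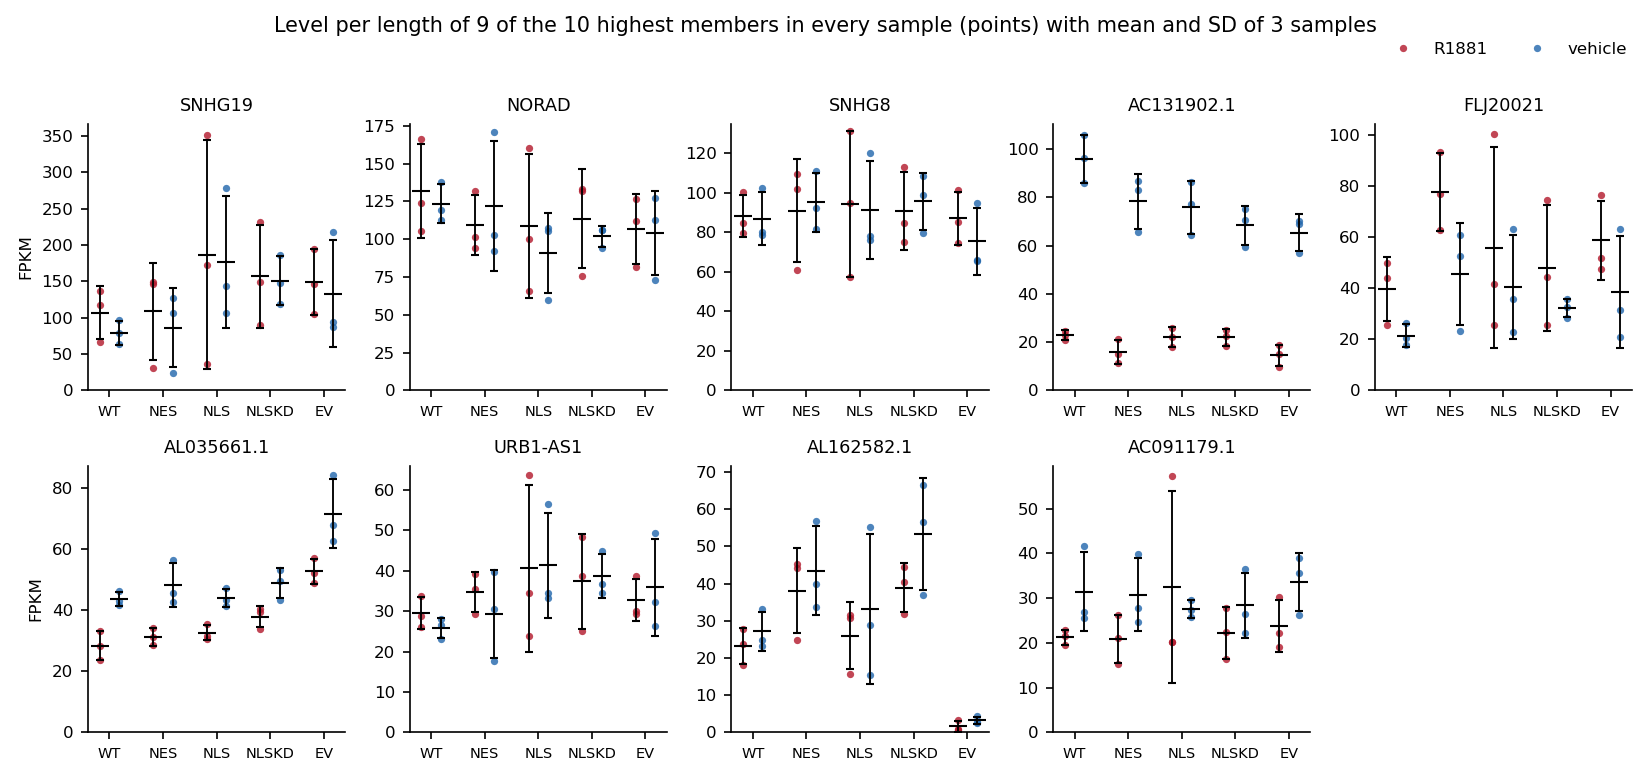
Deposited FPKM of 9 of the 10 members of highest mean FPKM in each library, by line (WT, NES, NLS, NLSKD, EV), R1881 in red left of vehicle in blue, with group mean and SD (n = 3). AC131902.1 stands lower in R1881 than in vehicle libraries of all 5 lines, and AL162582.1 stands lowest in EV cells (1.65 FPKM with R1881), while NORAD and SNHG8 overlap across groups.

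Per length the first 3 members were SNHG19 (mean 133 FPKM), NORAD (111 FPKM) and SNHG8 (89.5 FPKM). AC131902.1 was the fifth (48.2 FPKM), followed by FLJ20021, AL035661.1 (now LINC02967), URB1-AS1, AL162582.1 and AC091179.1 at 45.8, 44.0, 34.6, 28.8 and 27.2 FPKM. NORAD (ENSG00000260032, chr20:36045622-36050960, minus strand) is a long cytoplasmic RNA that binds PUMILIO proteins and is induced by DNA damage. It averaged 132 ± 31.2, 109 ± 19.9, 109 ± 47.7, 114 ± 32.6 and 107 ± 23.0 FPKM in WT, NES, NLS, NLSKD and EV cells with R1881, and 123 ± 13.02, 122 ± 42.7, 90.8 ± 26.7, 102 ± 6.86 and 104 ± 27.9 FPKM with vehicle (SD, n = 3 each). No group stood apart, and over the 17 comparisons of 2 groups its log2 fold change ran from -0.43 to 0.33 with a smallest adjusted p of 0.613.

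SNHG19, annotated with only 342 exonic bases, varied widely between libraries of a group. It averaged 186 ± 157 FPKM in NLS cells with R1881 and 79.4 ± 16.6 FPKM in WT cells with vehicle (SD, n = 3 each). None of its 17 comparisons passed, with log2 fold changes from -0.74 to 1.03. It had 36.7, 351 and 172 FPKM in the NLS libraries with R1881, so neighbouring ranks at the top of this order do not separate beyond their spread.

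Across the 10 groups, members differed more widely between their highest and lowest group mean than protein-coding genes did. That ratio had a median of 1.97 for members and 1.58 for the protein-coding genes of at least 3 CPM, and was at least 4 for 25 members (9.23%) and for 5.65% of those genes, whose levels are higher. EV cells with R1881 were the lowest group for 97 members (35.8%), against 22.7% of all 18296 genes tested and 25.7% of protein-coding genes of 3 to 30 CPM. NLS cells with vehicle were the highest group for 79 members (29.2%), against 14.7% of all genes tested. These shares describe the libraries and were not tested.

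The response to R1881 was asked of each line in turn, R1881 against vehicle, in 1 edgeR quasi-likelihood fit of all 30 libraries with Benjamini-Hochberg adjustment over 18296 genes. A member is called where the adjusted p is under 0.05. In WT cells 22 members were called, 7 higher and 15 lower with R1881, against 6.48% of all genes tested. In NES cells 27 were called (8 higher, 19 lower, 8.25% of all genes), in NLS cells 13 (6 higher, 7 lower, 4.44%), in NLSKD cells 14 (7 higher, 7 lower, 4.08%), and in EV cells 21 (10 higher, 11 lower, 9.11%). Over all genes 3.47, 4.21, 2.78, 2.48 and 4.55% were higher and 3.01, 4.04, 1.66, 1.60 and 4.55% lower in WT, NES, NLS, NLSKD and EV cells. As shares of the 271 these are 8.12, 9.96, 4.80, 5.17 and 7.75%, close to the background in each line. With the replicate number as a block, 35 members were called in EV cells. Without the mitochondria-rich libraries, 9 were called in NLSKD cells, and leaving out NLSKD R1881 1 or NLSKD vehicle 2 left 6 and 7.

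**Figure D2:**
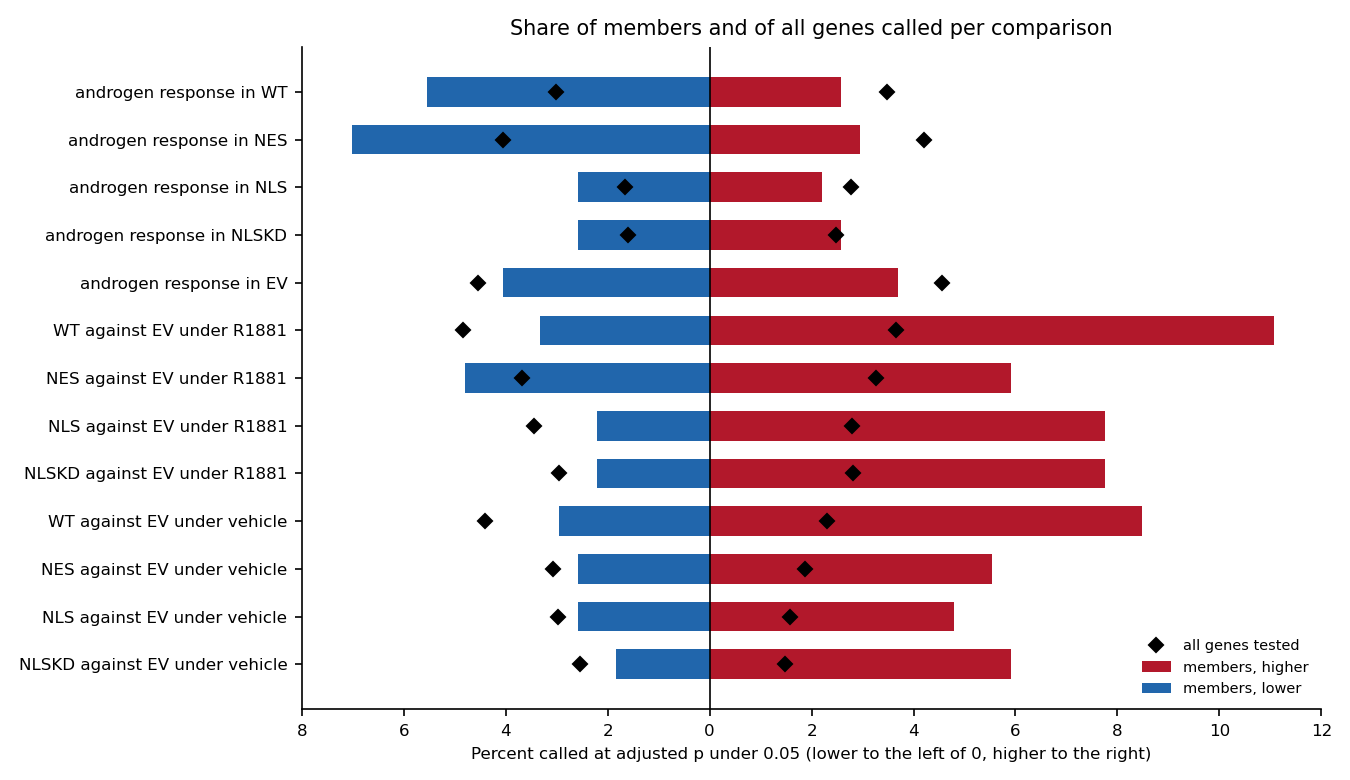
Percent of the 271 members called lower (left, blue) and higher (right, red) in 13 comparisons, with black diamonds for all 18296 genes tested. In the androgen responses the lower bars pass the diamonds in all lines but EV and the higher bars fall short of them in all lines but NLSKD, while against EV the share of members called higher lies beyond that of all genes, for WT with R1881 by 30 members against 9 lower.

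In all 5 lines 6 members were higher with R1881 (1.85% of all genes were) and 5 were lower (0.973% of all genes). The higher ones were both copies of LINC01297, PART1, DUBR, AC120049.1 and AC129492.2, and the lower ones were AC096588.1, PURPL, AC131902.1, ATP2B1-AS1 and LINC00648. Of the higher ones both copies of LINC01297 and AC120049.1 averaged under 3 CPM over the vehicle libraries (0.551, 0.115 and 1.83 CPM), and of the lower ones AC096588.1 did over the R1881 libraries (1.27 CPM). These 4 met the threshold on mean CPM through the treatment in which they were high, so their responses draw on how members were chosen and lend the counts no support. PURPL lay at the threshold over the R1881 libraries, with 3.001 CPM against 13.04 CPM with vehicle, so the same limit applies to its response. The plot of CPM by library shows most of these beside the members that followed the rescue.

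LINC01297 (ENSG00000225255, chr22:15746630-15778297, plus strand, now PSLNR) had 34.4, 46.0 and 45.6 CPM with R1881 in WT cells, against 0.717, 1.06 and 0.486 CPM with vehicle. In NES cells it had 12.3, 14.3 and 23.0 CPM with R1881, against 0.224, 0.233 and 0.349 CPM with vehicle. In NLS cells the values were 8.21, 34.3 and 27.3 CPM with R1881 and 0.266, 0.498 and 0.470 CPM with vehicle. The groups stood far apart in these lines and did not overlap. NLSKD cells had 19.4, 21.5 and 12.4 CPM with R1881 and 0.750, 1.06 and 0.638 CPM with vehicle, and EV cells had 17.2, 16.0 and 14.9 CPM with R1881 and 0.477, 0.553 and 0.490 CPM with vehicle. The log2 fold changes were 5.87 ± 0.44, 6.04 ± 0.48, 5.92 ± 0.46, 4.53 ± 0.42 and 5.06 ± 0.44 (SE) in WT, NES, NLS, NLSKD and EV cells, with adjusted p from 5.81e-10 to 2.87e-08. The nearest protein-coding gene, POTEH, 24999 bases away, was also higher in all 5 lines. The chromosome 14 copy (ENSG00000274827, chr14:19344578-19384587, minus strand) had 3.36, 3.44 and 2.78 CPM in EV cells with R1881 and no count in the 3 vehicle libraries, so it was at least 69.6-fold higher against a limit of 3 counts over the group (0.0400 CPM). It rose in the other lines by log2 fold changes of 5.55, 5.52, 5.24 and 6.41 in WT, NES, NLS and NLSKD cells. Both copies lie beside genes of the POTE family, near-identical repeats between which reads can be split, so the share of each copy is uncertain.

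PART1 (prostate androgen-regulated transcript 1, ENSG00000152931, chr5:60487713-60547657, plus strand) rose in each line. WT cells had 13.4, 5.70 and 7.19 CPM with R1881 and 4.45, 3.33 and 2.27 CPM with vehicle. NES cells had 6.49, 6.78 and 6.14 CPM with R1881 and 3.10, 3.83 and 3.40 CPM with vehicle. EV cells held the highest level in either treatment, with 17.9, 18.5 and 14.1 CPM with R1881 and 6.84, 9.16 and 6.41 CPM with vehicle. NLS cells had 7.50, 8.02 and 4.36 CPM with R1881 and 2.00, 3.62 and 2.27 CPM with vehicle, and NLSKD cells had 7.03, 4.76 and 6.17 CPM with R1881 and 1.83, 2.71 and 2.79 CPM with vehicle. R1881 and vehicle libraries did not overlap in any line, and the log2 fold changes were 1.46, 1.03, 1.45, 1.36 and 1.25 in WT, NES, NLS, NLSKD and EV cells (SE 0.31 to 0.32, adjusted p from 0.00314 to 0.0400). PART1 lies opposite to and overlaps PDE4D, a cyclic AMP phosphodiesterase gene, whose counts fell by log2 values of 2.42, 2.59, 1.57, 1.69 and 1.55 in the same 5 comparisons. The call in NES cells was lost without any 1 of its 6 libraries (adjusted p 0.0813 to 0.162) and without the mitochondria-rich ones (0.105). It was also lost in WT cells without WT R1881 1 (0.0576), in NLS cells without NLS vehicle 1 (0.0662) and in NLSKD cells without NLSKD vehicle 1 (0.111) or NLSKD R1881 1 (0.0768).

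DUBR (ENSG00000243701, chr3:107240692-107326964, plus strand) had 54.6, 30.7 and 36.1 CPM with R1881 and 16.1, 16.4 and 11.8 CPM with vehicle in WT cells. In EV cells it had 26.4, 16.2 and 25.3 CPM with R1881 and 9.50, 6.32 and 10.2 CPM with vehicle. No R1881 library fell into the range of the vehicle libraries in any line, and the log2 fold changes were 1.53, 1.73, 1.61, 1.29 and 1.47 in WT, NES, NLS, NLSKD and EV cells (SE 0.31, adjusted p from 0.000365 to 0.0117). The NLSKD call was lost in 5 of the 6 fits that left out 1 of its libraries (all but NLSKD R1881 2), with a highest adjusted p of 0.121. AC120049.1 (now SETBP1-DT), which starts 456 bases from SETBP1, rose by log2 fold changes of 1.71, 1.95, 1.77, 1.45 and 1.47, with 10.6, 5.99 and 7.01 CPM in WT cells with R1881 and 2.98, 1.83 and 2.76 CPM with vehicle. SETBP1 itself was not called in any line (log2 fold change 0.36 to 0.80). The NLSKD call of AC120049.1 was lost without NLSKD vehicle 2 (adjusted p 0.0502), without NLSKD R1881 1 (0.0569) and without the mitochondria-rich libraries (0.0693). AC129492.2 had the smallest responses of the 6 (log2 fold change 0.94 to 1.15). Its libraries overlapped between R1881 and vehicle in NLS and NLSKD cells, and each of its 5 calls was lost without at least 1 library (highest adjusted p 0.0607 in WT, 0.19 in NES, 0.208 in NLS, 0.272 in NLSKD and 0.0526 in EV cells).

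PURPL (ENSG00000250337, chr5:27472292-27496401, plus strand) was lower with R1881 in each line and lowest in EV cells. WT cells had 6.49, 4.36 and 3.91 CPM with R1881, against 23.1, 23.9 and 26.3 CPM with vehicle. NES cells had 3.19, 3.85 and 3.995 CPM with R1881, against 14.1, 16.2 and 16.5 CPM with vehicle. EV cells had 0.491, 1.49 and 1.43 CPM with R1881, against 4.09, 1.93 and 3.72 CPM with vehicle. The EV vehicle libraries thus reached no higher than the R1881 libraries of NES cells did, apart from 1 library at 4.09 CPM. NLS cells had 2.99, 2.13 and 3.27 CPM with R1881 and 13.2, 12.1 and 13.6 CPM with vehicle, and NLSKD cells had 2.15, 1.83 and 3.45 CPM with R1881 and 9.75, 7.03 and 10.2 CPM with vehicle. R1881 and vehicle did not overlap in any line, and PURPL fell by log2 values of 2.23, 1.97, 2.10, 1.78 and 1.43 in WT, NES, NLS, NLSKD and EV cells (SE 0.29 to 0.31, adjusted p from 4.94e-06 to 0.00281).

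ATP2B1-AS1 (ENSG00000271614, chr12:89708959-89712590, plus strand) starts 341 bases from ATP2B1, a plasma membrane calcium pump gene on the other strand that it overlaps. It had 7.03, 7.83 and 6.18 CPM with R1881 and 26.7, 21.5 and 22.2 CPM with vehicle in WT cells, and 4.42, 5.63 and 5.72 CPM with R1881 and 28.0, 26.2 and 20.5 CPM with vehicle in NES cells. In EV cells it had 3.13, 3.03 and 1.60 CPM with R1881 and 7.55, 7.82 and 8.29 CPM with vehicle. R1881 libraries stood below vehicle libraries without overlap in each line, and it fell by log2 values of 1.67, 2.13, 1.46, 1.52 and 1.52 in WT, NES, NLS, NLSKD and EV cells (SE 0.23 to 0.24, adjusted p from 3.29e-07 to 0.000106). ATP2B1 fell alongside by 1.99, 2.26, 1.54 and 1.73 in WT, NES, NLSKD and EV cells, and its log2 fold change of -1.44 in NLS cells did not pass (adjusted p = 0.0545). Counting by strand is not stated in the sources used here, so reads of an overlapping pair cannot be told apart.

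The promoters of PURPL and ATP2B1-AS1, from 250 bases before to 50 after the RefSeq start (GRCh38.p14), are printed because these are the members that fell with R1881 in all 5 lines and have a RefSeq entry in the table used, at chr5:27472042-27472341 and chr12:89708705-89709004, both plus strand. The hexamer bound by the androgen receptor was searched as AGAACA on both strands (TGTTCT on the other), and neither stretch holds it. The RefSeq start of PURPL is the annotated base, and that of ATP2B1-AS1 lies before it.
PURPL: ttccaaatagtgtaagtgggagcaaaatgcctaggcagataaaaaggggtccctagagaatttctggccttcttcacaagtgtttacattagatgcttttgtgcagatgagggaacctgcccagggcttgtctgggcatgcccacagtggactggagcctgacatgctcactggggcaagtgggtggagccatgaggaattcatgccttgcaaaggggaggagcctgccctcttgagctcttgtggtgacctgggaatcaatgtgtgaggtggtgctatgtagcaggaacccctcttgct
ATP2B1-AS1: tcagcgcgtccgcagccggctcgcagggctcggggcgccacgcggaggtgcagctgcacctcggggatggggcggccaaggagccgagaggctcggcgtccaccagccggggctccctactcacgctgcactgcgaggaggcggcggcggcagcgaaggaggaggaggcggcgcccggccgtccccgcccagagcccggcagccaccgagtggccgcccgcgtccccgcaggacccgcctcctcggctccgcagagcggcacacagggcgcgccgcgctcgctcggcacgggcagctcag
Among the 135 members matched to a RefSeq promoter, 12 (8.89%) held the hexamer, against 14.8% of all 35116 promoters of that length, and none held the full site of AGAACA, 3 bases and TGTTCT, which 0.00285% of all promoters hold. Promoters were matched by symbol, and some RefSeq starts lie far from the annotated one, as for AC090092.1 (-335486 bases). Of the members higher in all 5 lines 3 had a promoter in the table, and only the chromosome 22 copy of LINC01297 held the hexamer. The RefSeq start of that copy lies at -5737 bases from the annotated one. Such a match of the hexamer describes letters in a window of 300 bases.

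AC096588.1 (ENSG00000249392, chr4:59551142-59630324, minus strand) fell most of these 5 in WT, NES, NLSKD and EV cells. It had 1.53, 0.963 and 0.942 CPM with R1881 in WT cells, against 6.64, 8.82 and 8.99 CPM with vehicle. EV cells had 0.415, 0.373 and 0.123 CPM with R1881, against 4.73, 1.97 and 3.27 CPM with vehicle. Both pairs of groups were separate, as they were in the other lines, and it fell by log2 values of 2.75, 2.76, 2.09, 1.94 and 3.33 in WT, NES, NLS, NLSKD and EV cells (SE 0.35 to 0.42, adjusted p from 2.29e-06 to 0.000639). AC131902.1 (chromosome 8), the fifth most abundant member per length, had 14.3, 12.6 and 14.0 CPM with R1881 and 53.1, 60.1 and 65.7 CPM with vehicle in WT cells, and fell by 2.05, 2.28, 1.77, 1.62 and 2.18 in the 5 lines in the same order. LINC00648 fell by 1.14, 1.42, 0.998, 0.93 and 1.18, with 8.38, 10.4 and 9.33 CPM with R1881 and 22.6, 18.6 and 26.5 CPM with vehicle in EV cells, its highest line. Its NLSKD call was lost without NLSKD vehicle 2 (adjusted p 0.0626) or NLSKD R1881 1 (0.0521), and its NLS call without the mitochondria-rich libraries (0.0994). All calls of LINC01297, AC096588.1, AC131902.1, PURPL and ATP2B1-AS1 in the 5 androgen responses were kept whichever of their libraries was left out. In fits on the 2 groups alone 6 of the NLS calls of these 11 members were lost, for ATP2B1-AS1 (adjusted p 0.0511), AC120049.1 (0.0748), DUBR (0.143), PART1 (0.196), LINC00648 (0.196) and AC129492.2 (0.348). AC129492.2 also lost its calls in NES (0.087) and NLSKD cells (0.165), and PURPL its call in EV cells (0.131).

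**Figure D3:**
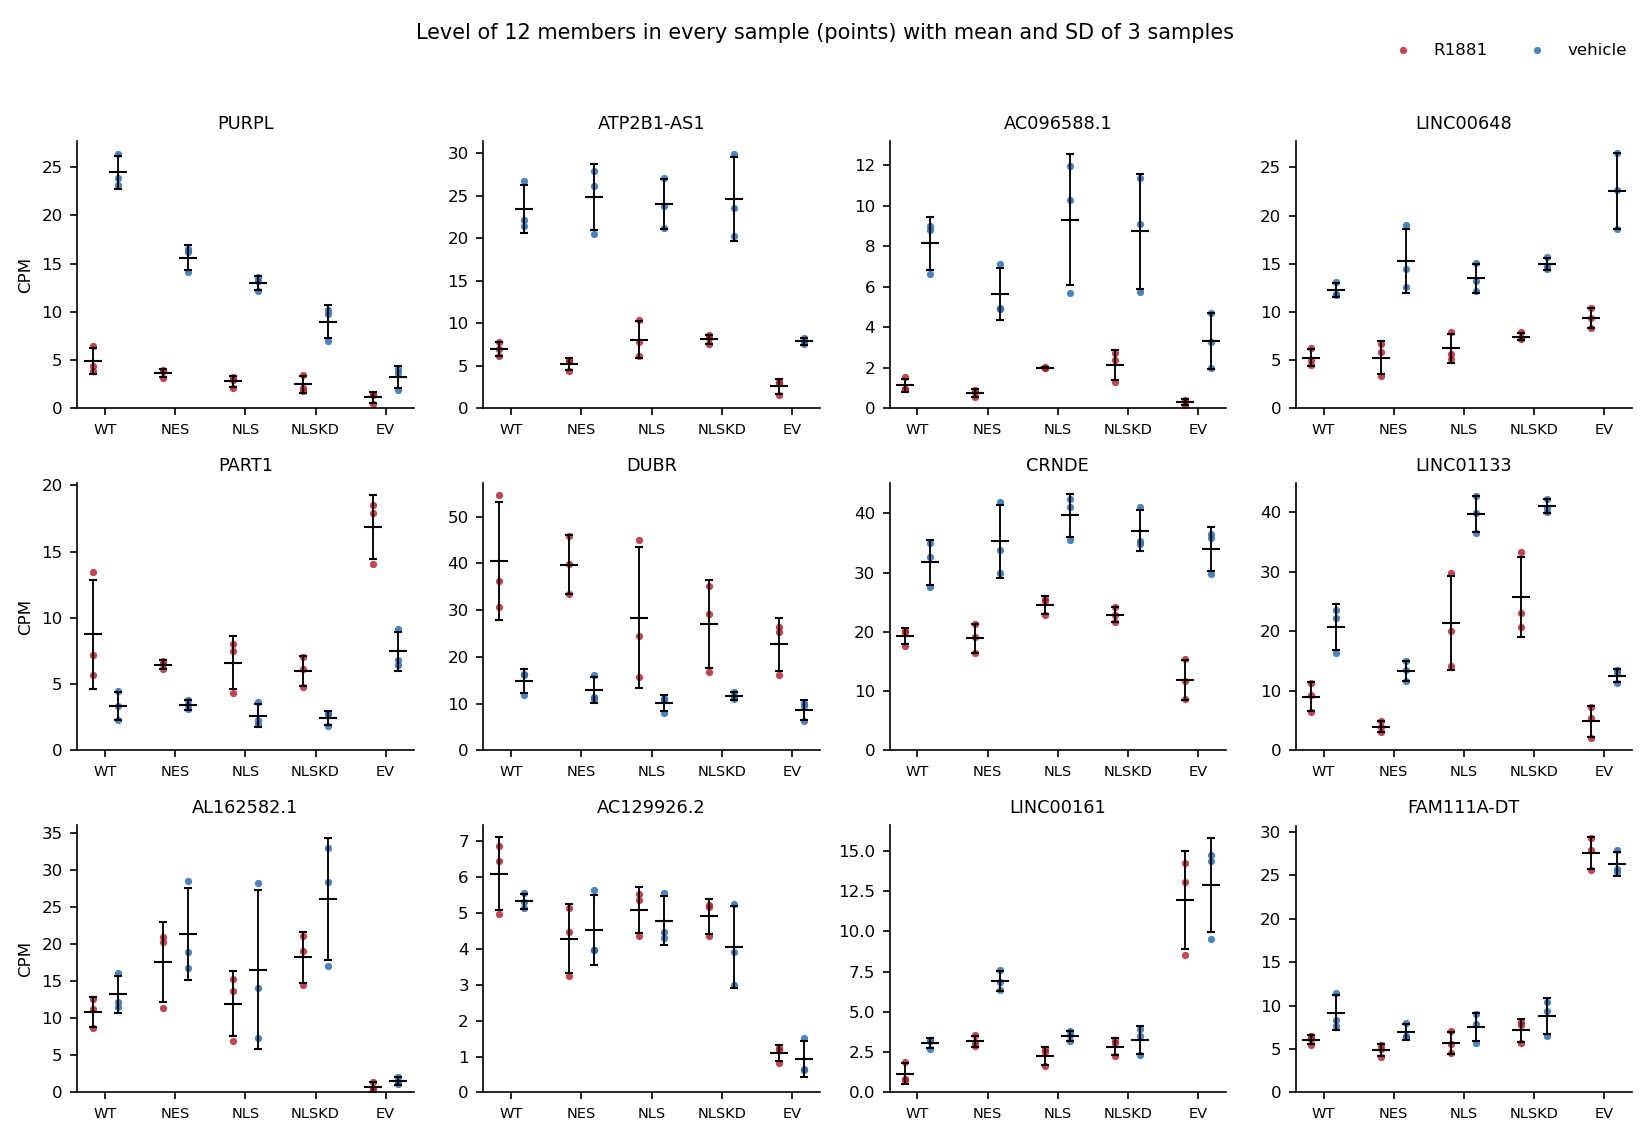
CPM of 12 members in each library, by line (WT, NES, NLS, NLSKD, EV), R1881 in red left of vehicle in blue, with group mean and SD (n = 3). PURPL and ATP2B1-AS1 are low with R1881 and low in EV cells, FAM111A-DT and LINC00161 are high in EV cells (27.6 CPM for FAM111A-DT with R1881), and LINC01133 is high in NLS and NLSKD cells.

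CRNDE (ENSG00000245694, chr16:54845189-54929189, minus strand), first described in colorectal tumours, fell with R1881 in 4 lines. It had 8.72, 15.3 and 11.7 CPM with R1881 and 29.7, 35.8 and 36.5 CPM with vehicle in EV cells, and 20.1, 17.7 and 19.99 CPM with R1881 and 32.7, 27.6 and 34.9 CPM with vehicle in WT cells. The R1881 libraries were below the vehicle libraries in both, and CRNDE fell by log2 values of 1.44 in EV cells (adjusted p = 1.99e-06), 0.64 in WT cells (0.0213), 0.78 in NES cells (0.00395) and 0.61 in NLSKD cells (0.0421). The WT call was lost without WT vehicle 1 (adjusted p 0.0807), WT vehicle 3 (0.111), WT R1881 2 (0.113) or WT R1881 3 (0.0638), and the NLSKD call without any 1 of its 6 libraries (0.0529 to 0.144) and without the mitochondria-rich ones (0.1). IRX5, the homeobox gene 1673 bases away, fell by 1.62 in EV cells and was not called in the other 3.

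Whether the response differed between a rescue line and EV was tested by the interaction of line and treatment. No member was called for WT, NES, NLS or NLSKD, and 0.0437, 0.00, 0.0164 and 0.0164% of all genes were. At an unadjusted p under 0.05 the counts were 14, 7, 8 and 6 members, and DESeq2 called 0 in each. CRNDE had the smallest adjusted p for WT and for NLS, at 0.691 and 0.599.

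The effect of supplying mTOR was asked by setting each rescue line against EV under the same treatment. The 4 comparisons of a treatment share the 3 EV libraries, so what a member does in them is not 4 independent results. Under R1881, 39 members were called for WT (30 higher, 9 lower, 8.49% of all genes), 29 for NES (16 higher, 13 lower, 6.96%), 27 for NLS (21 higher, 6 lower, 6.23%) and 27 for NLSKD (21 higher, 6 lower, 5.75%). Members were thus called more often as higher than as lower than EV in all 4. Over all genes 3.66, 3.27, 2.79 and 2.80% were higher and 4.83, 3.69, 3.44 and 2.95% lower for WT, NES, NLS and NLSKD. Of 4383 protein-coding genes of 3 to 30 CPM, 252, 245, 178 and 179 were higher and 282, 233, 178 and 172 lower. The threshold averaged over more rescue than EV libraries, so members high in rescue cells met it more easily. The direction of the member counts can draw on that choice. The median log2 fold change of the 271 was 0.17, 0.09, 0.25 and 0.22, against 0.03, 0.03, 0.04 and 0.02 over all genes tested. It was -0.03, -0.01, 0.16 and 0.14 for the 941 other lincRNAs tested, and 0.06, 0.08, 0.19 and 0.16 for 1402 antisense genes. Part of the shift for NLS and NLSKD was thus found in other noncoding classes. Of the members, 14.4% were called for WT, against 12.2% of protein-coding genes of 3 to 30 CPM, so the total share is near that of genes of like level.

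Leaving out 1 library lowered these counts, to 18 for WT (without WT R1881 3; 21 without WT R1881 2), 15 for NES (without EV R1881 3; 16 and 19 without NES R1881 3 and 2) and 17 for NLS (without NLS R1881 3), while 41 were called for NLS without NLS R1881 1. With the replicate number as a block, 52 members were called for NLS and 45 for NLSKD.

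Under vehicle, 31 members were called for WT (23 higher, 8 lower, 6.71% of all genes), 22 for NES (15 higher, 7 lower, 4.94%), 20 for NLS (13 higher, 7 lower, 4.57%) and 21 for NLSKD (16 higher, 5 lower, 4.01%). Here too the higher calls outnumbered the lower ones among members, with the same limit from how members were chosen. The higher calls for NES and NLS include the chromosome 14 copy of LINC01297, on 12 and 15 counts against no count in EV cells. Among all genes 2.30, 1.87, 1.59 and 1.47% were higher and 4.41, 3.07, 2.98 and 2.54% lower. Of the protein-coding genes of 3 to 30 CPM, 151, 121, 101 and 95 were higher and 243, 213, 184 and 169 lower. The member medians were 0.10, 0.08, 0.20 and 0.19, against -0.01, 0.00, -0.01 and -0.02 over all genes. Medians were -0.06, -0.04, 0.04 and 0.02 for the other lincRNAs tested, and 0.00, 0.07, 0.18 and 0.10 for antisense genes. Without the mitochondria-rich libraries 13 members were called for NLS and 12 for NLSKD, and with the replicate block 46 for NLS. Counts fell to 19 or 20 for WT without any of WT vehicle 1, 2 and 3 or EV vehicle 2, and to 14 and 13 for NES without EV vehicle 3 and NES vehicle 2.

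**Figure D4:**
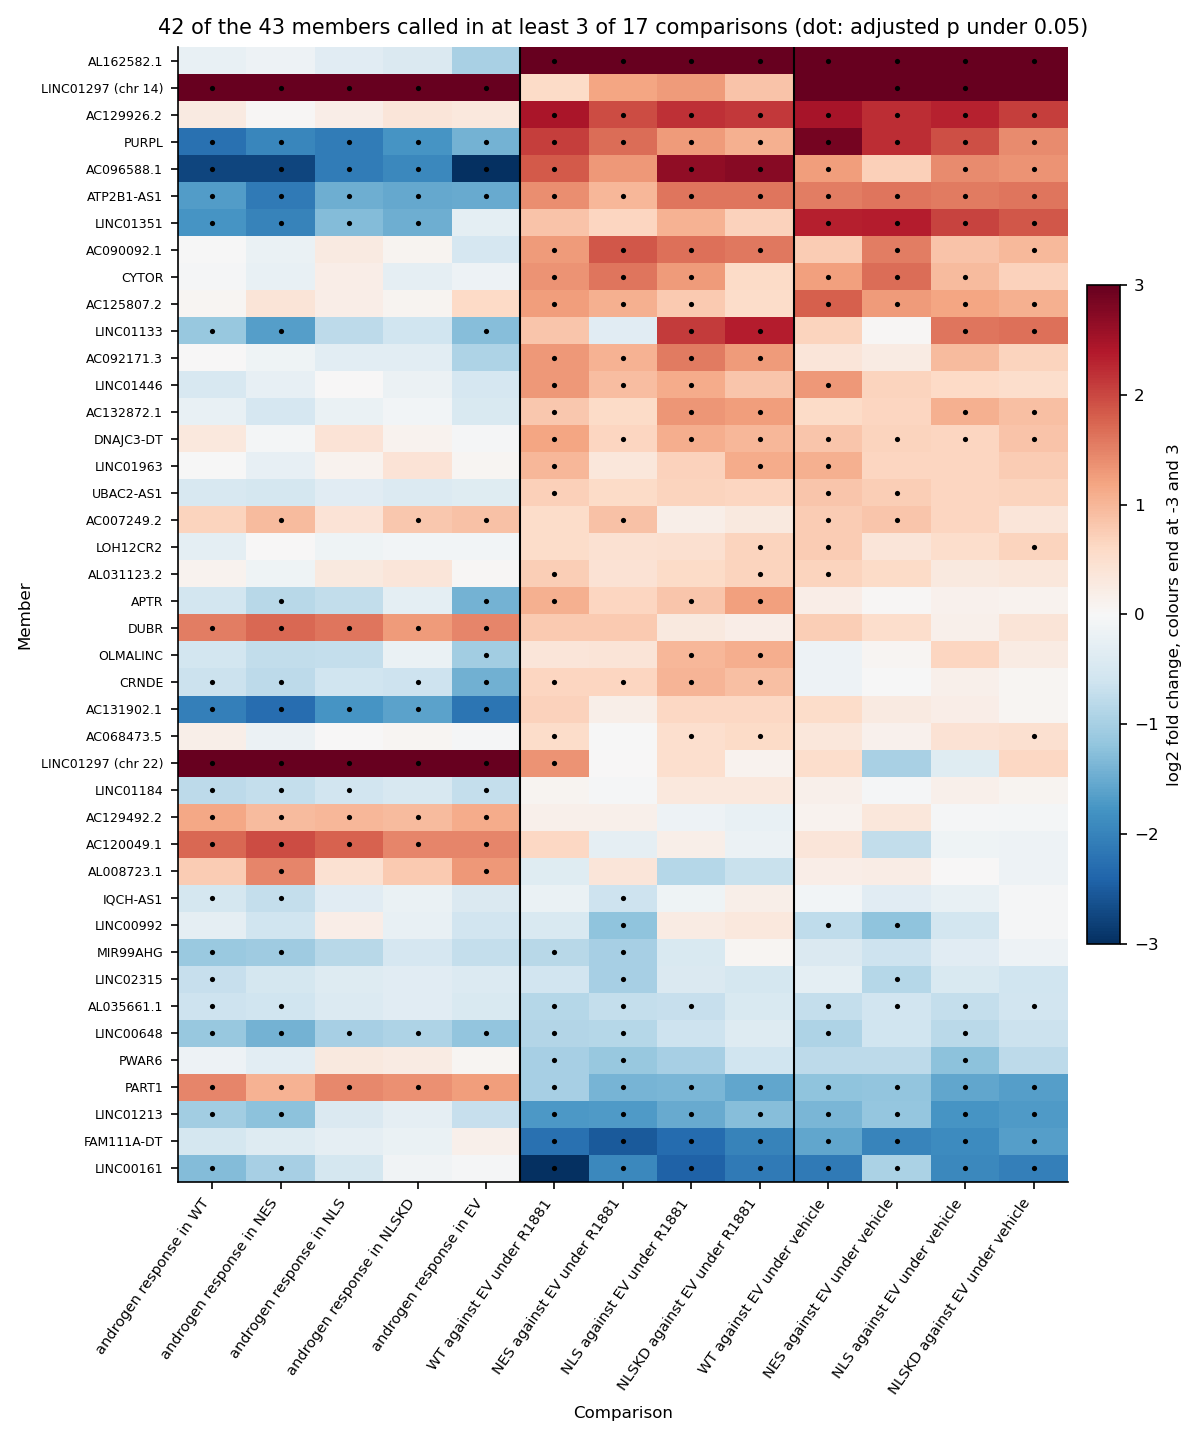
Log2 fold change of 42 of the 43 members called in at least 3 of the 17 comparisons of 2 groups, in 13 comparisons, with colours that end at 3 in either direction and a dot where the adjusted p is under 0.05. ATP2B1-AS1, PART1 and PURPL are called in all 13, and the fold of LINC01297 (chromosome 14) against EV with vehicle rests on EV libraries without a count.

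In all 8 comparisons with EV 5 members were higher (0.465% of all genes were) and 4 were lower (0.787%). The higher ones were AL162582.1, AC129926.2, PURPL, ATP2B1-AS1 and DNAJC3-DT, and the lower ones were FAM111A-DT, LINC00161, LINC01213 and PART1. Of these, AL162582.1, PURPL and AC129926.2 averaged under 3 CPM in EV cells (1.14, 2.19 and 1.01 CPM) and LINC01213 in the rescue lines (2.92 CPM), so they too met the threshold through the cells in which they were high. PURPL, ATP2B1-AS1 and PART1 are the members called in 13 comparisons, since they also changed with R1881 in each line.

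Of the members called in all 8 comparisons, AL162582.1 (ENSG00000230234, chr6:160272617-160276130, plus strand) differed most from EV. With R1881 it had 12.6, 11.2 and 8.65 CPM in WT, 20.4, 11.3 and 21.03 CPM in NES, 13.6, 6.96 and 15.2 CPM in NLS and 19.1, 14.5 and 21.04 CPM in NLSKD cells, against 1.43, 0.290 and 0.450 CPM in EV cells. With vehicle it had 16.1, 11.5 and 12.2 CPM in WT, 18.9, 16.8 and 28.5 CPM in NES, 28.2, 7.28 and 14.1 CPM in NLS and 28.3, 17.04 and 33.0 CPM in NLSKD cells, against 2.11, 1.34 and 1.18 CPM in EV cells. Every rescue library exceeded every EV library, and the log2 fold changes were 3.82, 4.54, 3.97 and 4.56 with R1881 and 3.06, 3.73, 3.34 and 4.02 with vehicle (SE 0.45 to 0.49, adjusted p from 4.77e-07 to 3.77e-05). It overlaps SLC22A2, an organic cation transporter gene on the other strand, which was higher in the same 8 comparisons by 3.67 to 4.65, and how reads of the pair were divided is not known. AC129926.2 (ENSG00000285822, chr17:27089545-27170310, plus strand) had 6.45, 6.87 and 4.95 CPM in WT cells with R1881, against 0.830, 1.24 and 1.19 CPM in EV cells. Its 24 rescue libraries lay between 2.99 and 6.87 CPM and its 6 EV libraries between 0.632 and 1.51 CPM, and it was higher than in EV by 1.95 to 2.48 in the 8 comparisons.

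ATP2B1-AS1, with values by library above, was higher than in EV by log2 fold changes of 1.39, 0.99, 1.61 and 1.60 with R1881 and 1.53, 1.60, 1.55 and 1.60 with vehicle, for WT, NES, NLS and NLSKD. PURPL was higher by 2.07, 1.67, 1.27 and 1.07 with R1881 and by 2.87, 2.21, 1.94 and 1.42 with vehicle, each without overlap. The NES call of ATP2B1-AS1 with R1881 was lost without EV R1881 3 (adjusted p 0.0866) or NES R1881 3 (0.0522). The NLS call of PURPL with R1881 was lost without EV R1881 1 (0.0908) or NLS R1881 3 (0.0518), and the NLSKD call without EV R1881 1 (0.244), EV R1881 3 (0.0529), NLSKD R1881 1 (0.0630) or NLSKD R1881 3 (0.293), without the mitochondria-rich libraries (0.0639), without the filter on low counts (0.0588) and with RLE size factors (0.0505).

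DNAJC3-DT, named after its values were seen, starts 214 bases from DNAJC3, a gene for a chaperone of the endoplasmic reticulum (chr13:95648733-95676925, minus strand). It averaged 26.7 ± 2.62, 18.2 ± 2.30, 24.8 ± 0.859 and 23.8 ± 2.16 CPM in WT, NES, NLS and NLSKD cells with R1881, against 11.4 ± 1.05 CPM in EV cells, and 22.6 ± 2.90, 20.3 ± 4.24, 20.1 ± 3.65 and 23.2 ± 0.620 CPM with vehicle, against 12.4 ± 1.44 CPM in EV cells (SD, n = 3 each). It was higher than in EV by log2 fold changes of 1.18, 0.65, 1.09 and 0.999 with R1881 and 0.83, 0.67, 0.64 and 0.86 with vehicle (adjusted p from 2.57e-05 to 0.0231), and was not called in any androgen response. Its calls were lost for NES with R1881 without EV R1881 3 or NES R1881 2 or 3 (highest adjusted p 0.0963), and for NES and NLS with vehicle without EV vehicle 1 or 2, NES vehicle 1 or NLS vehicle 1 or 3 (highest 0.114 for NES and 0.0924 for NLS). The same 3 calls were lost without the filter on low counts (0.204, 0.196 and 0.19) and in fits on the 2 groups alone (0.0522, 0.296 and 0.176), and that for NES with R1881 without the mitochondria-rich libraries (0.0651). Under R1881 CRNDE, AC090092.1 (now LINC02718) and AC092171.3 were also higher in all 4 lines, making 8 members (1.01% of all genes). AC092171.3 lost its call for NES without any 1 EV library, NES R1881 2 or 3 or the mitochondria-rich libraries (highest adjusted p 0.266), for NLSKD without EV R1881 1 or 2 or NLSKD R1881 1 (0.0643) and for WT without WT R1881 2 or 3 (0.0564). Under vehicle LINC01351 (now BRINP3-DT) and AC125807.2 were, making 7 (0.612%). LINC01351 had 7.77, 6.18 and 6.12 CPM in WT cells with vehicle, against 1.07, 1.11 and 1.71 CPM in EV cells, a log2 fold change of 2.32 ± 0.36 (adjusted p = 6.48e-05). These EV libraries lay below 3 CPM, so LINC01351 met the threshold through other groups, and the difference draws on how members were chosen.

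FAM111A-DT (ENSG00000245571, chr11:59130133-59143015, minus strand) starts 267 bases from FAM111A, a protease gene linked to DNA replication. With R1881 it had 6.53, 6.16 and 5.48 CPM in WT, 5.46, 5.04 and 4.08 CPM in NES, 7.07, 4.56 and 5.53 CPM in NLS and 8.07, 7.73 and 5.66 CPM in NLSKD cells, against 25.6, 29.3 and 27.9 CPM in EV cells. With vehicle it had 8.37, 11.5 and 7.66 CPM in WT, 6.50, 8.02 and 6.33 CPM in NES, 8.97, 5.75 and 7.82 CPM in NLS and 10.5, 6.48 and 9.41 CPM in NLSKD cells, against 25.8, 27.9 and 25.4 CPM in EV cells. The highest rescue library, at 11.5 CPM, stood below every EV library, and FAM111A-DT was below EV by log2 fold changes of -2.23, -2.52, -2.30 and -2.00 with R1881 and -1.57, -1.98, -1.88 and -1.64 with vehicle (SE 0.20 to 0.21, adjusted p from 7.63e-09 to 7.63e-06). FAM111A was lower in the same 8 comparisons, by -1.56 to -2.11, and the pair overlaps. All 8 calls of FAM111A-DT, AL162582.1 and AC129926.2 were kept whichever of their libraries was left out.

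LINC00161 (ENSG00000226935, chr21:28539318-28540355, plus strand) had 1.91, 0.796 and 0.802 CPM in WT, 2.87, 3.13 and 3.53 CPM in NES, 1.62, 2.48 and 2.70 CPM in NLS and 2.23, 3.07 and 3.22 CPM in NLSKD cells with R1881, against 8.53, 14.2 and 13.1 CPM in EV cells. With vehicle NES cells stood nearest to EV, with 6.83, 6.34 and 7.59 CPM, against 9.50, 14.4 and 14.7 CPM. The groups did not overlap, and LINC00161 was below EV by -3.39, -1.93, -2.43 and -2.12 with R1881 (adjusted p from 1.95e-08 to 5.26e-05) and by -2.12, -0.96, -1.94 and -2.04 with vehicle. The vehicle call for NES was lost without EV vehicle 2 (adjusted p 0.153) or 3 (0.162), without NES vehicle 1 (0.0984), 2 (0.166) or 3 (0.111), and without the mitochondria-rich libraries (0.179). LINC01213 (ENSG00000244541, chr3:150238519-150240209, plus strand) had 2.14, 1.93 and 1.5 CPM in WT cells with R1881, against 4.91, 6.55 and 6.22 CPM in EV cells, and was below EV by -1.15 to -1.76 in the 8 comparisons. Its vehicle call for NES was lost without EV vehicle 3 (adjusted p 0.055), without NES vehicle 3 (0.107) and without the mitochondria-rich libraries (0.0518), and its R1881 call for NLSKD without NLSKD R1881 1 (0.0504). PART1 was below EV by -0.99, -1.40, -1.37 and -1.55 with R1881 and -1.20, -1.18, -1.56 and -1.66 with vehicle. Its calls were lost for WT with R1881 without EV R1881 1 (0.116), EV R1881 2 (0.133), WT R1881 2 (0.211) or WT R1881 3 (0.175), for NLS with R1881 without NLS R1881 3 (0.0603), for WT with vehicle without EV vehicle 2 (0.107), WT vehicle 2 (0.0624) or WT vehicle 3 (0.127), and for NES with vehicle without EV vehicle 2 (0.133) or any 1 NES library (highest 0.115). In fits on the 2 groups alone ATP2B1-AS1 lost its R1881 calls for NES (0.0847) and NLS (0.0771), and PURPL those for NLS (0.317) and NLSKD (0.33). LINC00161 lost its vehicle call for NES (0.142), and LINC01213 that call (0.06) and its R1881 calls for NLS (0.0511) and NLSKD (0.0866). PART1 lost its calls for WT under both treatments (0.0501 each), for NLS with R1881 (0.0866) and for NES with vehicle (0.0777).

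The promoters of LINC00161 and LINC01213 (GRCh38.p14, plus strand, chr21:28539068-28539367 and chr3:150238269-150238568) are printed as those of members lower than EV in all 8 comparisons that start at the annotated base. The AGAACA hexamer, 81 bases before the start of LINC00161, is in capitals.
LINC00161: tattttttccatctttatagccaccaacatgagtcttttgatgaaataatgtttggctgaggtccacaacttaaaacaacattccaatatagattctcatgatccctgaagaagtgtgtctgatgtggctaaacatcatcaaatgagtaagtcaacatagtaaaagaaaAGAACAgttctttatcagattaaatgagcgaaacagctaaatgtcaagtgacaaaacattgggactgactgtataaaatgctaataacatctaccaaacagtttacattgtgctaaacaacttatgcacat
LINC01213: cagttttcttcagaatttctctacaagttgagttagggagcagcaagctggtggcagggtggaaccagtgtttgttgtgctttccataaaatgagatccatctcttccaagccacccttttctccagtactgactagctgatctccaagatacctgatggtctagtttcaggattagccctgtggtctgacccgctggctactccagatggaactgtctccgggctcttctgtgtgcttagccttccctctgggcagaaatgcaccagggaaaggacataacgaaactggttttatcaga

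Nuclear and exported mTOR were compared directly, NLS against NES. MTOR averaged 1010 and 979 CPM in NLS cells with R1881 and vehicle, against 4134 and 5445 CPM in NES cells. The place of mTOR cannot be told apart here from its level or from the line. Under R1881 4 members were called (1.37% of all genes): LINC01133, LINC00992 and AC005332.4 were higher in NLS cells (0.929% of all genes) and AL008723.1 was lower (0.437% of all genes). Under vehicle LINC01133 alone was called (1.03% of all genes). LINC01133 (ENSG00000224259, chr1:159961218-159984750, plus strand), an RNA described to bind the splicing factor SRSF6, had 14.3, 29.8 and 20.1 CPM in NLS cells with R1881, against 3.04, 4.88 and 3.995 CPM in NES cells. With vehicle it had 42.7, 39.9 and 36.6 CPM in NLS cells, against 15.01, 11.7 and 13.4 CPM in NES cells. The libraries did not overlap under either treatment, and the log2 fold changes were 2.44 ± 0.33 with R1881 (adjusted p = 0.000133) and 1.57 ± 0.31 with vehicle (adjusted p = 0.00807).

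The kinase-dead form had like levels of LINC01133, with 20.8, 33.4 and 23.2 CPM with R1881 and 40.1, 42.3 and 40.8 CPM with vehicle, and both NLS forms exceeded EV (2.11, 7.22 and 5.40 CPM with R1881, and 11.4, 13.5 and 12.9 CPM with vehicle). NLS was above EV by log2 fold changes of 2.10 and 1.60, and NLSKD by 2.35 and 1.66, with R1881 and vehicle. LINC01133 also fell with R1881, by 1.13 in WT, 1.64 in NES and 1.28 in EV cells, calls lost in EV cells without EV R1881 1 (adjusted p 0.0651) and in WT cells without WT R1881 2 or 3 or WT vehicle 1 or 3 (highest 0.153). In the fit on the compared groups alone neither NLS against NES difference of LINC01133 passed (adjusted p 0.135 with R1881 and 0.0508 with vehicle). LINC00992 had 3.22, 3.37 and 3.63 CPM in NLS cells with R1881, against 1.12, 1.15 and 1.47 CPM in NES cells (log2 fold change 1.45 ± 0.23, adjusted p = 0.000761), without overlap. Its mean over all libraries (3.01 CPM) was just inside the threshold, which it met through groups other than NES with R1881. This difference therefore draws on how members were chosen and lends the count no support. AC005332.4 (0.88, adjusted p = 0.0459) lost its call without any 1 of its 6 libraries (0.0728 to 0.268). AL008723.1 (-1.23, adjusted p = 0.0368) lost it without NES R1881 1, 2 or 3 or NLS R1881 2 or 3 (highest 0.234). With the replicate block 8 members were called under R1881, and without the mitochondria-rich libraries, without any 1 NES library or without NLS R1881 3, 2 were.

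The promoter of LINC01133 (GRCh38.p14, chr1:159960974-159961273, plus strand), whose RefSeq start lies just after the annotated one, is printed as that of the member called in both NLS against NES comparisons. It holds no AGAACA on either strand.
LINC01133: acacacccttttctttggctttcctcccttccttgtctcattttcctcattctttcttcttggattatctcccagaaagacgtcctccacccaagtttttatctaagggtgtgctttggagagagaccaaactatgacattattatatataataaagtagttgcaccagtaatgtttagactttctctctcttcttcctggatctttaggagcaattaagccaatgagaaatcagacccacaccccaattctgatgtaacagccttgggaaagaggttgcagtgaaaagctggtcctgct

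Kinase activity of nuclear mTOR was asked by NLS against NLSKD. No member was called under R1881 or under vehicle (0.00547 and 0.0109% of all genes), and 3 and 4 members had an unadjusted p under 0.05. DESeq2 called 0 in both. The median log2 fold change of the members was 0.02 with R1881 and 0.05 with vehicle.

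In all, 77 of the 271 members (28.4%) were called in at least 1 of the 17 comparisons of 2 groups, against 23.1% of all genes tested, and 194 in none. Of the 77, 33 were called in an androgen response (12.8% of all genes) and 67 against EV (16.1%), with 23 in both. Called members were head to head with a protein-coding gene in 26 of 77 cases (33.8%), against 84 of the 194 others (43.3%).

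The 6 members that carry small nucleolar RNAs in their introns, SNHG4, SNHG8, SNHG9, SNHG15, SNHG19 and EPB41L4A-AS1, were called in none of the comparisons, and 27 of the 31 genes of the whole list were tested, with at most 2 called in any comparison. The log2 fold changes of SNHG8 ran from -0.07 to 0.33 and those of SNHG4 from -0.34 to 0.03, but those of SNHG9 from 0.08 to 1.57 and those of SNHG19 from -0.74 to 1.03, none past the test. Host transcripts of this kind often start with a cytosine and a run of pyrimidines, the 5′ terminal oligopyrimidine tract through which mTOR is known to regulate translation of ribosomal protein messenger RNAs. The 25 bases from 10 before to 15 after the RefSeq start are printed for the 4 with an entry, with the pyrimidine run from the start in capitals.
SNHG4: ctcccggctgCCCTTTCCCCTCCgg
SNHG19: ccgcccctgtCTTTTCggggtcgag
SNHG8: ctcggcctttCacattcgggaagcg
EPB41L4A-AS1: tcatgaattcTgtcgggtcccaaaa
A cytosine at the start followed by at least 4 pyrimidines was present in SNHG4 and SNHG19, and in 4.07% of all promoters of the table. The RefSeq start of SNHG8 lies 53 bases from the annotated one, so its run depends on which start is used. The windows are at chr5:139274091-139274115 (plus), chr16:2155344-2155368 (minus), chr4:118278752-118278776 (plus) and chr5:112160516-112160540 (plus), in GRCh38.p14.

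Of the 8 microRNA host genes among the members, MIR99AHG, MIR193BHG and MIR210HG were each called at least once. Of the whole list of 63 genes 23 were tested, and at most 4 were called in a comparison. The median log2 fold change of the 8 was -0.66 for WT against EV under R1881, against 0.03 over all genes tested. In the androgen responses it was 0.27 to 0.68, against -0.04 to 0.02. The 23 tested genes of the whole list did not share this, with medians of 0.15 and of -0.03 to 0.20. MIR99AHG (ENSG00000215386, chr21:15928296-16645065, plus strand) had 12.6, 8.63 and 12.4 CPM with R1881 and 23.2, 22.6 and 30.6 CPM with vehicle in WT cells. In NES cells it had 7.16, 11.6 and 11.2 CPM with R1881 and 18.6, 22.6 and 27.3 CPM with vehicle. R1881 libraries were lower without overlap in both, and it fell by log2 values of 1.11 (adjusted p = 0.00606) and 1.08 (0.00706). Against EV with R1881 it was lower in WT (-0.84, adjusted p = 0.0403) and NES cells (-0.99, 0.0171). Its androgen calls were lost without WT R1881 2 (0.0548) in WT and NES R1881 1 (0.0538) in NES cells. Its calls against EV were lost without EV R1881 2 or 3, without any 1 WT library and without NES R1881 1 (highest adjusted p 0.173 for WT and 0.103 for NES).

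Mature microRNAs inside these hosts are printed with the seed, bases 2 to 8, in capitals (RefSeq, GRCh38.p14). The transcripts counted are the hosts, and mature microRNAs were not measured.
miR-99a-5p (MIR99AHG): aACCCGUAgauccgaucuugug
let-7c-5p (MIR99AHG): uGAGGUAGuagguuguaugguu
let-7a-5p (MIRLET7BHG): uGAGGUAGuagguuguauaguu
let-7b-5p (MIRLET7BHG): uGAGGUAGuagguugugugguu
miR-210-3p (MIR210HG): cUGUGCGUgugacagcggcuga
miR-193b-3p (MIR193BHG): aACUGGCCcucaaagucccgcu
The 3 let-7 forms share the seed GAGGUAG across both hosts, while MIRLET7BHG, unlike MIR99AHG, was not called in any comparison (log2 fold change -0.64 to 1.28, smallest adjusted p 0.154). MIR210HG, host of the hypoxia-induced miR-210, had 1.81, 3.42 and 2.19 CPM in WT cells with vehicle, against 4.73, 16.0 and 3.80 CPM in EV cells. The EV values rest on 1 high library: the log2 fold change of -1.79 (adjusted p = 0.0479) became -0.81 without EV vehicle 2 (adjusted p = 0.598), and the call was also lost without any 1 WT library (0.0624 to 0.19). MIR193BHG had 6.64, 2.93 and 4.74 CPM with R1881 and 2.56, 1.30 and 3.20 CPM with vehicle in WT cells. These libraries overlap, and its call (log2 fold change 1.09, adjusted p = 0.0399) was lost without WT vehicle 1 or 2 or WT R1881 1 or 3 (highest adjusted p 0.224). MIR22HG came close without passing in any comparison (log2 fold change -0.78 to 1.35, smallest adjusted p 0.0562).

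Of the 2 members on the list of prostate transcripts, PART1 was called and SCHLAP1, an RNA linked to aggressive prostate cancer, was not (log2 fold change -0.57 to 0.43, smallest adjusted p 0.132). The members were picked from lists with the results of these data known.

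**Figure D5:**
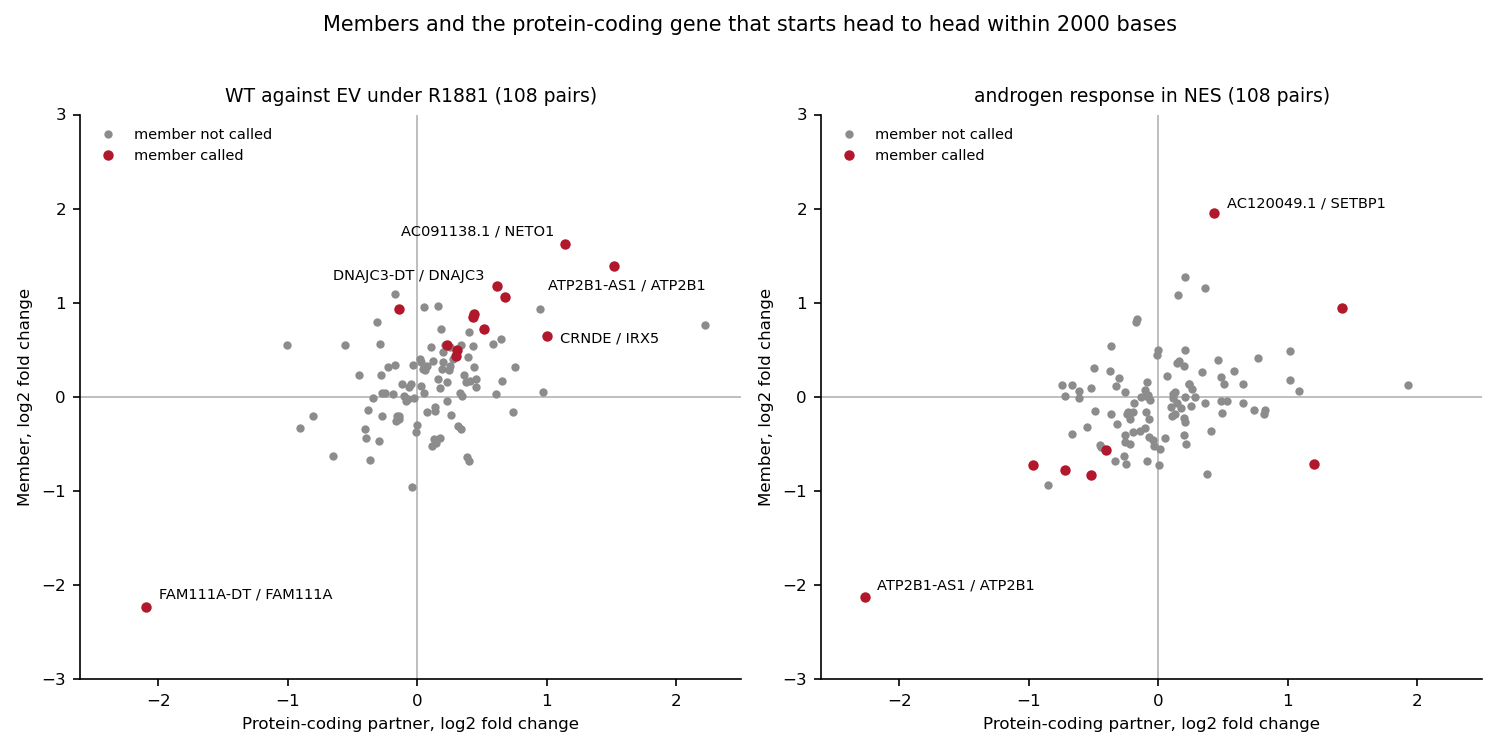
Log2 fold change of the member (vertical axis) against that of the protein-coding gene it starts head to head with (horizontal axis), for 108 pairs tested, called members in red, in WT against EV under R1881 and in the androgen response of NES cells. The points slope upwards, with r = 0.53 and 0.42 across pairs, and the pair of FAM111A-DT lies farthest out on the left panel (-2.23 and -2.09) and that of ATP2B1-AS1 on the right (-2.13 and -2.26).

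Fold changes of members were set beside those of the protein-coding gene they start head to head with. Of the 110 pairs 108 had both genes tested, and the Pearson correlation of their log2 fold changes across pairs was 0.39 to 0.62 in the 13 comparisons of R1881 with vehicle and of rescue lines with EV. The pairs share libraries and scaling, overlapping pairs can share reads, and genes are not independent replicates, so no p is given. Across the 102 tested pairs of a member and its nearest protein-coding gene within 50000 bases that are not head to head, r was 0.45 to 0.75, and it was above that of the head-to-head pairs in each of the 5 androgen responses. These pairs include the chromosome 22 copy of LINC01297 with POTEH, where reads can be split between repeats. No pair was left out of this set, so its r without such pairs is not known. For the head-to-head pairs without those of FAM111A-DT and ATP2B1-AS1, left out after seeing the plot, r was 0.37 for WT against EV under R1881. It was 0.30 for the androgen response of NES cells. For WT against EV under R1881, 13 head-to-head members were called and 5 of their partners were called in the same direction, none in the opposite one, while 13 of all 108 partners were called. In the androgen response of EV cells 7 members were called, with 3 partners in the same direction, and 18 of 108 partners were called. Called partners went both ways in the androgen responses of WT (1 in the same direction and 1 in the opposite one) and NES cells (2 and 1) and for NLSKD against EV under R1881 (2 and 1), and none of the 3 members called in the androgen response of NLS cells had a called partner. AC091138.1 (now NETO1-DT) and NETO1 were both higher than EV under R1881 in WT (1.62 and 1.14) and NES cells (1.73 and 1.06). CRNDE and IRX5 were both higher than EV under R1881 for WT (0.65 and 1.004), NES (0.65 and 1.06) and NLS (1.01 and 1.27), while for NLSKD IRX5 did not pass (0.95, adjusted p = 0.0842). The WT and NES calls of CRNDE were lost without EV R1881 1 (adjusted p 0.136 and 0.163) or EV R1881 3 (0.071 and 0.0871), without WT R1881 1 or 3 (0.075 and 0.0811) and without NES R1881 2 or 3 (0.125 and 0.0799), and both without the filter on low counts (0.167 and 0.181). The NES call was also lost without the mitochondria-rich libraries (0.152). In fits on the 2 groups alone CRNDE lost all 4 calls against EV under R1881, for WT (0.128), NES (0.131), NLS (0.116) and NLSKD (0.0684). The calls of AC091138.1 were lost without any 1 EV library and without replicate 2 or 3 of WT or NES (highest adjusted p 0.184 and 0.193), for WT with RLE size factors (0.0529) and for NES without the mitochondria-rich libraries (0.0798).

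Other members called against EV included CYTOR, with 6.76, 8.16 and 8.07 CPM in NES cells with vehicle, against 2.31, 2.96 and 1.55 CPM in EV cells (log2 fold change 1.69 ± 0.27, adjusted p = 0.000171). CYTOR, a cytoskeleton-linked RNA, has a near-identical copy on the same chromosome, so its counts are uncertain. Its EV libraries with vehicle lay below 3 CPM, so it met the threshold through other groups, and the difference draws on how members were chosen. AL035661.1, the seventh most abundant member per length, had 37.0, 27.4 and 33.0 CPM in WT cells with R1881, against 60.6, 53.2 and 57.8 CPM in EV cells, and was lower than EV in all 4 lines under vehicle, by -0.56 to -0.71. The vehicle calls were lost for NES without EV vehicle 3 or NES vehicle 2 or 3 (highest adjusted p 0.175), for NLSKD without EV vehicle 1 or 3 or NLSKD vehicle 1 or 3 (0.208), and for NES, NLS and NLSKD without the mitochondria-rich libraries (0.193, 0.153 and 0.259). PWAR6, from the imprinted Prader-Willi region, had 16.1, 18.2 and 16.5 CPM in NES cells with R1881, against 27.5, 43.3 and 40.1 CPM in EV cells (-1.15 ± 0.31, adjusted p = 0.0197), a call lost without any 1 of these 6 libraries except EV R1881 1.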

How the data were processed

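Total RNA of 30 LNCaP samples was sequenced on a NovaSeq instrument with paired-end reads, per the labels' protocols. The authors deposited a table of raw read counts per gene and a table of FPKM (fragment counts scaled to transcript length and library) per gene. The submitters' processing notes name HISAT2 2.0.5, featureCounts 1.5.0-p3 and hg38. Whether counting used strand, and how reads with several matches were handled, is not given in the sources used here. CPM was computed as count over column total, and deposited FPKM was used only to compare levels between genes.

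Counts were fitted with edgeR 4.0.16 (R 4.3.3): TMM scaling, filterByExpr, 1 quasi-likelihood fit of all 30 libraries with a mean per group, and Benjamini-Hochberg adjustment per comparison over 18296 genes, with calls at an adjusted p under 0.05. Fold changes are log2, given with their standard error (SE). All 271 members passed the filter. The step was tested on simulated data: of 100 genes changed by a log2 value of 1 in the EV androgen response it recovered 23%, and of 100 changed by 2 it recovered 71%. The changed genes were drawn from all genes of the fit, at any level, and were fewer than the 1666 called in that response. The recovery of members was not simulated and may differ, and counts of changed members can still miss smaller effects. Intervals and floors cover counting error only.

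The 271 members and all gene lists were chosen with earlier results of these data known. Members named are the 10 of highest mean FPKM, those called the same way in all 5 androgen responses, up to 5 per direction with the largest change among called members whose libraries do not overlap (up to 3 for interactions), called members of the lists, the neighbours of the threshold, and their nearest protein-coding gene within 50000 bases. DNAJC3-DT and AC092171.3 fall outside this rule and were named after their values were seen. Items that the rule or lists would name but that do not appear are not reported here.

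Same-numbered libraries deviated together (every correlation over 0.1) in the androgen responses of WT, NES, NLSKD and EV cells, NLS and NLSKD against EV and NLS against NES under R1881, and NLS against EV and NLS against NLSKD under vehicle. The labels do not say what a number shares. No pair of libraries agreed within sampling noise. Alternatives were DESeq2 1.42.0, RLE size factors, no filter, a replicate block, fits on the compared groups only, leaving out libraries above 9% mitochondrial counts, and leaving out each library. Python 3.11.15, pandas 2.3.3, NumPy 2.4.6 and matplotlib 3.10.9 were used.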

Additional observations from a re-analysis of the deposited data

How the results depend on the processing

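Among the 229 pairs of a named member and a comparison that called it, no direction reversed under any alternative run. Calls were lost in 4 pairs with RLE size factors, 38 without the filter on low counts, 34 without the libraries above 9% mitochondrial counts, 74 in fits on the compared groups alone (2 pairs of the chromosome 14 copy of LINC01297, NES and NLS against EV under vehicle, gave no value there) and 266 leave-one-out fits, and in none with DESeq2 or the replicate block. With the replicate number as a block, which changed no named call, the members called numbered 35 for the androgen response in EV, 21 in NLS, 49, 52 and 45 for NES, NLS and NLSKD against EV under R1881, 46 for NLS against EV under vehicle, and 8 and 2 for NLS against NES under R1881 and vehicle. In the androgen response of NLS cells same-numbered libraries did not all deviate together (correlations -0.02 to 0.64). Nor did they for NES against EV under R1881 (0.04 to 0.42) or NLS against NES under vehicle (-0.28 to 0.46). Whether the number pairs libraries there is not known. In fits on the compared groups alone, which rest on 6 libraries, the counts were 5 for the androgen response in NLS, 6 and 17 for NLS and NLSKD against EV under R1881, 18, 8, 10 and 13 for WT, NES, NLS and NLSKD against EV under vehicle, and 0 for NLS against NES under R1881 and 0 under vehicle. Without the libraries above 9% mitochondrial counts they were 9 for the androgen response in NLSKD, 13 and 12 for NLS and NLSKD against EV under vehicle, and 2 for NLS against NES under R1881, and the cause was not tested. DESeq2 called 31 for NLS against EV under vehicle, and 8 and 2 for NLS against NES under R1881 and vehicle, and without the filter 2 were called for NLS against NES under vehicle. Leaving out 1 library gave 15 to 18, 21 to 26, 10 to 14, 6 to 12 and 18 to 22 members for the androgen responses in WT, NES, NLS, NLSKD and EV. Against EV it gave 18 to 27, 15 to 24, 17 to 41 and 18 to 23 for WT, NES, NLS and NLSKD under R1881, and 19 to 23, 13 to 22, 14 to 22 and 14 to 16 under vehicle. NLS against NES gave 2 to 4 under R1881 and 1 under vehicle. A mean of at least 2 or 5 CPM would keep 345 or 174 members, a median of at least 3 CPM 260, and CPM over TMM-scaled totals 270.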
